A study of Anas platyrhynchos x Cairina moschata with 137 samples.

Results

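Liver mRNA of mule ducks, the hybrid of Anas platyrhynchos and Cairina moschata, was quantified by real-time PCR on microfluidic chips at 7 stages of development. The stages were embryonic days 12, 16, 20, 24 and 28 (E12 to E28) and days 1 and 4 after hatching (D1 and D4), with 20 animals per stage except for E12, E24 and D1, which had 19, and 1 liver from each animal. The genes described here are those whose mean relative expression was highest on D4. For each numbered target gene the arithmetic mean over the animals with a value was taken per stage, and 20 of the 50 target genes had their highest mean on D4. Of these 20, 13 had a D1 mean above their E28 mean (rows 2, 5, 9, 13, 17, 19, 20, 21, 29, 33, 37, 43 and 44), and 7 did not (rows 6, 15, 30, 38, 39, 42 and 47). The deposited tables number the genes and do not pair the numbers with names, so each gene is given by its row, and its function is not known here.

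All animals came from eggs of 1 genotype of mother, incubated under shared conditions until all eggs were moved to a hatcher shortly before E28. The hatcher was slightly cooler and more humid than the incubator. Stage and this move therefore cannot be told apart between E28 and the earlier stages. The embryos were taken before hatching, and the ducklings of D1 and D4 hatched in the same hatcher. The D1 ducklings were sampled before the diet was offered, whereas the D4 ducklings had been moved on the second day to a cooler rearing room where the diet was freely available. Age, feeding and room therefore cannot be told apart between D4 and D1, and the arrays on which the animals were run are not given in the sources used here. No treatment or genetic change was applied at any stage.

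The panel was chosen by the study for liver development, carbohydrate metabolism, lipid metabolism and the response to stress. Poultry make fat largely in hepatocytes and export it as lipoproteins, whereas adipose tissue mostly stores it. In the chick, hepatic enzymes of this route such as malic enzyme and fatty acid synthase are known to be scarce until the first feed and to respond to insulin and thyroid hormone. The same organ takes up lipid that the yolk sac releases, and it holds much of it as cholesteryl ester around hatching.

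Relative expression is a linear ratio of a gene to 5 references, scaled so that 1 is the average of the gene over all animals on the Ct scale. It compares stages within a gene and does not compare the level of different genes. In whole liver, fewer cells of a type and less RNA per cell cannot be told apart. Because the stage means chose the genes and the split, the values on D4 against other stages and on D1 against E28 are given below as a description, without a test. The authors left the most extreme values of some genes and stages out of the relative expression, and statements on animals cover the values they kept unless restored values are named.

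The D4 mean of the 20 genes was 1.03 to 311 times their next highest stage mean, with a median of 2.14 times. In the 30 other genes of the panel this ratio lay between 0.014 and 0.999, with a median of 0.289. The next highest mean lay at D1 in 7 of the 20 genes (rows 5, 13, 17, 21, 29, 37 and 44), at E12 in 7, at E20 in 3, and at E16, E24 and E28 in 1 each. So 13 of the 20 had an embryonic stage as their second highest. The D4 mean was 1.28 to 1873 times the D1 mean, with a median of 3.86 times, against a median of 1.89 times in the other 30 genes, of which 23 had a D4 mean above their D1 mean.

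**Figure D1:**
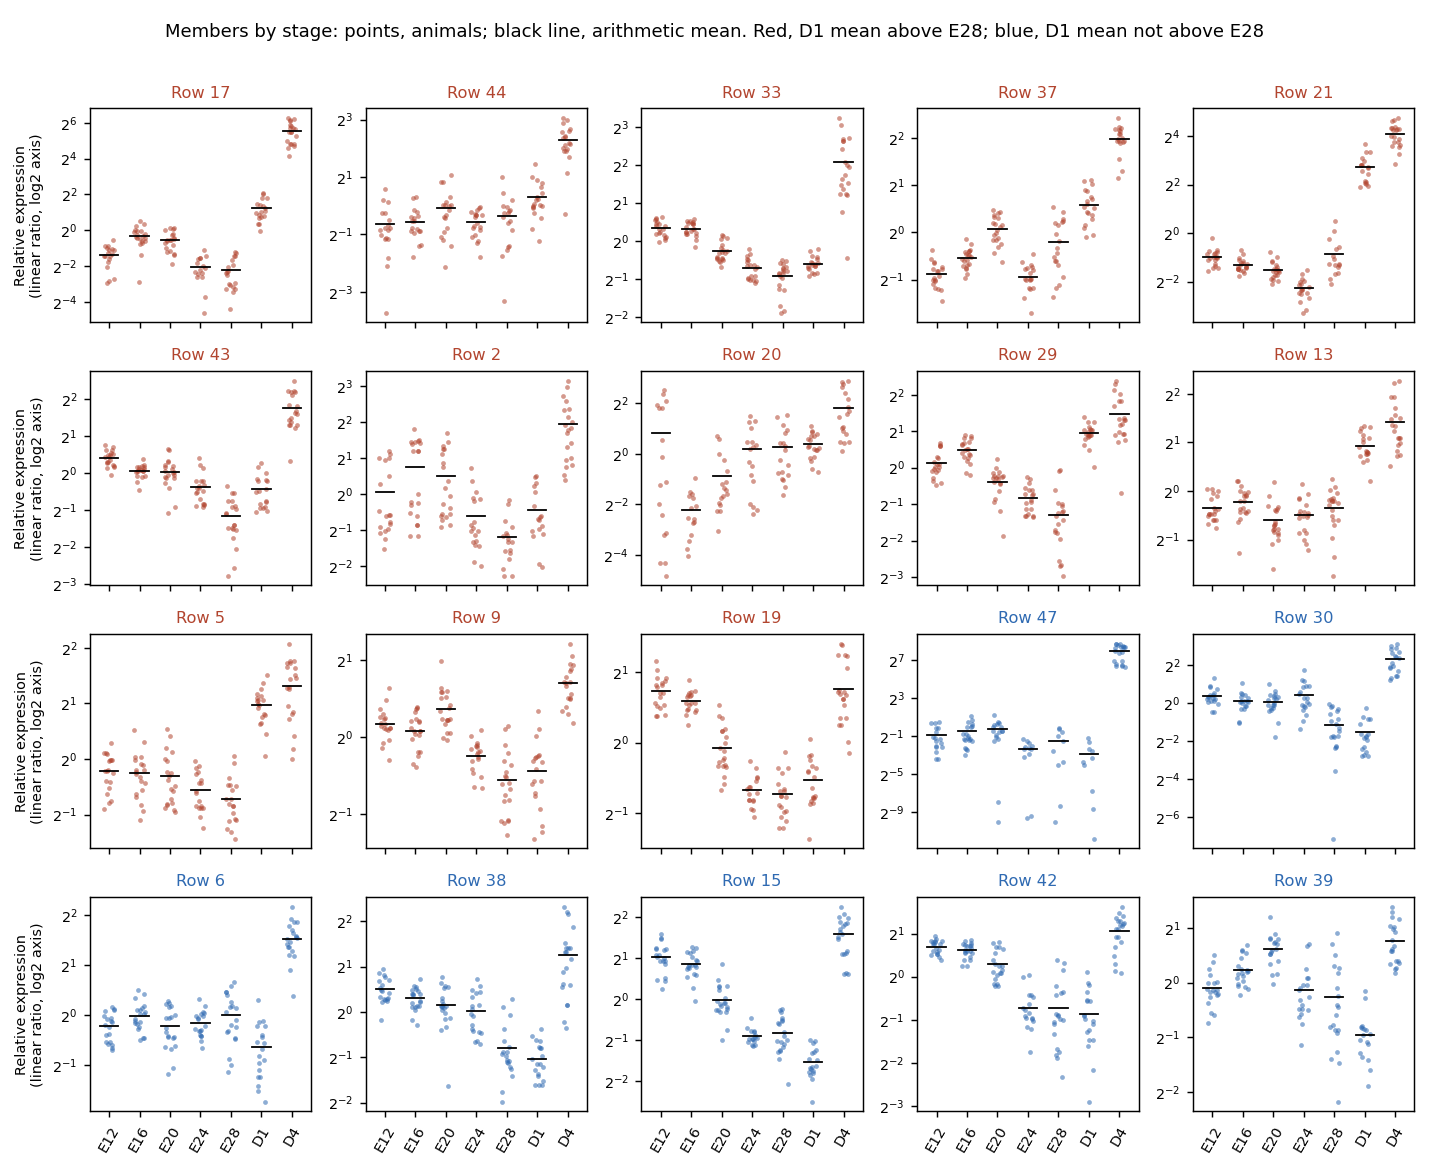
Relative expression of the 20 genes highest on D4 in every animal with a value, by stage, on a log2 axis; black lines are arithmetic means, red panels are the 13 genes with a D1 mean above E28 and blue panels the 7 without. Among the values kept, rows 17, 21 and 29 have every D1 animal above every E28 animal, and the D4 animals of rows 17, 37 and 47 lie above all animals of the 6 other stages.

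Row 17 had the largest step among the genes already higher on D1 than at E28. Its relative expression on D4 was 17.4 at the lowest, 44.6 at the median and 76.9 at the highest (mean 45.9 ± 18.04, SD, n = 20), against 0.969, 2.07 and 4.18 on D1 (mean 2.33 ± 0.945, SD, n = 18). At E28 it lay between 0.0475 and 0.428, with a mean of 0.211 ± 0.118 (SD, n = 19). The D4 mean was 19.7 times the D1 mean, the D1 mean was 11.1 times the E28 mean, and the animals of these 3 stages did not overlap, also with the 1 value left out on D1 and the 1 at E28 restored.

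Row 44 had values of 0.815 to 8.31 on D4, with a median of 4.56 and a mean of 4.89 ± 1.87 (SD, n = 19), against 0.424 to 2.71 on D1, with a median of 1.05 and a mean of 1.23 ± 0.549 (SD, n = 19). Its D4 mean was 3.96 times the D1 mean. The stages overlapped, since 2 of the 19 D4 animals, replicate 5 at 0.815 and another at 2.22, lay below the highest D1 animal, and 16 of the 19 D1 animals lay above replicate 5. Through the 5 embryonic stages its means stayed between 0.638 and 0.938.

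Row 33 was above 1 at the first stages sampled, was low from E20 to D1 and was highest on D4. Its embryonic means were 1.27 (E12), 1.26 (E16), 0.834 (E20), 0.618 (E24) and 0.530 (E28), followed by 0.665 (D1) and 4.26 (D4). On D4 the animals ranged from 0.744 to 9.47, with a median of 3.61 (SD 2.31, n = 20), against 0.536 to 0.875 on D1, with a median of 0.654 (SD 0.0928, n = 19). The lowest D4 animal, again replicate 5, lay inside the range of D1 and the second lowest, at 1.72, lay above it.

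Row 21 had the highest ratio of D1 to E28. It ranged from 7.13 to 26.7 on D4, with a median of 17.6 (SD 5.31, n = 20), against 3.77 to 12.7 on D1, with a median of 6.55 (SD 2.52, n = 18). Its D1 mean was 12.1 times its E28 mean of 0.548 ± 0.318 (SD, n = 16), and no D1 animal overlapped with E28. The authors had left out 4 of its 20 E28 values, all above the highest kept one, and 1 on D1. With these restored the ratio was 8.23 and the lowest D1 animal, at 3.77, still lay above the highest of E28, at 2.38. For rows 29, 5 and 13 the D1 mean was 4.68, 3.20 and 2.42 times the E28 mean, while their D4 mean was 1.43, 1.28 and 1.39 times the D1 mean. In these 3 genes the D1 mean lay nearer to the D4 mean than to the E28 mean.

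In rows 37, 43 and 2 the D4 mean was 2.63, 2.52 and 2.30 times the next highest mean and the D1 mean was 1.74, 1.66 and 1.69 times the E28 mean. Row 20 differed from all of them at E12, where its animals ranged from 0.0356 to 5.72, with a median of 0.462 against a mean of 1.75 (n = 17). The SD of its log2 values at E12 was 2.60, whereas the median SD of the 20 genes at that stage was 0.32. Its second highest stage therefore rests on some of the E12 animals.

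The 7 genes without a higher D1 mean all had their lowest stage mean on D1, as did 19 of the 25 other genes of the panel whose D1 mean was not above E28. A gene with a higher D1 mean cannot have this pattern. Row 47 was the extreme of the panel, with values of 79.0 to 428 on D4, a median of 290 and a mean of 257 ± 131 (SD, n = 20). On D1 it lay between 0.00028 and 0.430, with a median of 0.0924 (mean 0.137 ± 0.145, SD, n = 10), and its highest mean before D4 was 0.824 at E20. The D4 mean was 311 times the E20 mean and 1873 times the D1 mean. With the 1 value left out on D1 restored, it was 1452 times the D1 mean. On D4 the gene was read early in the PCR, at a mean threshold cycle (Ct, where a lower value means more template) of 13.5, against 26.7 on D1. It had no Ct in 27 animals, namely 1 at E12, 3 at E20, 6 at E24, 9 at E28 and 8 on D1, so its low means rest on the animals with a value. The tables do not tell a reaction that gave no product from one taken out for its melting curve.

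Row 30 ranged from 2.29 to 8.57 on D4, with a median of 4.74 (mean 4.91 ± 2.01, SD, n = 18), against 0.146 to 0.845 on D1, with a median of 0.290 (mean 0.342 ± 0.199, SD, n = 17). Its D4 mean was 14.4 times the D1 mean and 3.62 times the next highest mean, that of E24, and every D4 animal lay above every D1 animal. Row 6 ranged from 1.30 to 4.50 on D4, with a median of 2.90 (mean 2.90 ± 0.717, SD, n = 20), against 0.302 to 1.24 on D1, with a median of 0.629 (mean 0.644 ± 0.242, SD, n = 19). This gene was nearly flat through incubation, with stage means between 0.859 and 0.998. Row 15 started high, at 2.05 ± 0.504 at E12 (SD, n = 19), reached its lowest mean of 0.348 ± 0.0867 on D1 (SD, n = 18) and stood at 2.98 ± 0.949 on D4 (SD, n = 20).

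Every D4 animal lay above every D1 animal in 9 of the 20 genes, 3 of the 13 with a higher D1 mean (rows 17, 37 and 43) and 6 of the 7 without (rows 6, 15, 30, 38, 39 and 47), where 28.0% of all 50 genes had such a separation. Every D4 animal lay above every animal of all 6 other stages in rows 17, 37 and 47 (6.0% of all genes), and above every E28 animal in 11 of the 20 (26.0% of all genes). Every D1 animal lay above every E28 animal in rows 17, 21 and 29 (10.0% of all genes), and below in 0 of the 20 (2.0% of all genes). With the values left out by the authors restored from their Ct, the D4 animals lay above all D1 animals in 6 of the 20 genes (rows 6, 15, 17, 30, 38 and 47, of 9 in all 50), above all other stages in rows 17 and 47 (2 of all 50) and above all E28 animals in 9 (11 of all 50). The separations of rows 37, 39 and 43 from D1 and of rows 2 and 37 from E28 were thus seen only with these values left out, whereas those of D1 from E28 in rows 17, 21 and 29 remained. These contrasts are those of the selection.

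The selection was narrow at its edges. Row 19 was just inside, with 0.905 to 2.62 on D4, a median of 1.60 and a mean of 1.69 ± 0.525 (SD, n = 20), against 1.30 to 2.23 at E12, a median of 1.63 and a mean of 1.65 ± 0.260 (SD, n = 19), a ratio of 1.03. Row 40 was just outside, with 1.80 ± 0.428 on D4 (SD, n = 20) and 1.80 ± 0.244 at E16 (SD, n = 20), a ratio of 0.999. Row 39, the least pronounced of the 7 genes, had 1.70 ± 0.459 on D4 (SD, n = 20), with values of 1.13 to 2.61, against 1.53 ± 0.312 at E20 (SD, n = 18), with values of 0.983 to 2.28. The D4 range of each of these genes covered or overlapped that of the stage next to it in rank. For the split, row 20 was just inside with a D1 mean 1.08 times its E28 mean, and row 42 just outside at 0.907 times. With the 2 left-out E28 values of row 20 restored, its ratio was 0.83, so it did not stay inside.

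**Figure D2:**
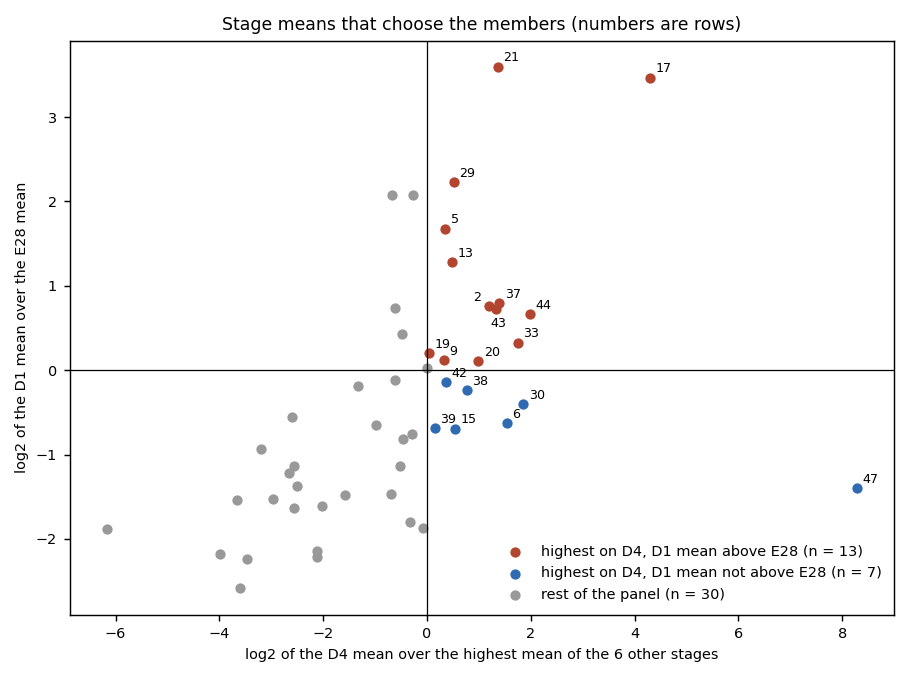
Log2 of the D4 mean over the highest of the 6 other stage means (x axis) against log2 of the D1 mean over the E28 mean (y axis) for the 50 genes; numbers are rows, red and blue mark the 13 and 7 genes highest on D4, grey the rest. Row 47 stands farthest to the right, rows 17 and 21 highest, and rows 19 and 39 lie next to the vertical line that divides the genes.

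The references shifted between D1 and D4 as well. The mean Ct of the 5 references changed by -2.24, -1.90, -2.89, 1.59 and -0.66 cycles (rows 51 to 55, D4 minus D1), so 4 of them were read earlier on D4 and row 54 later. Among the 20 genes the difference in mean Ct, D4 minus D1, lay between -13.2 and -1.51 cycles, with a median of -3.26, and was below 0 in 20 of 20. In the other 30 genes its median was -2.11, and it was below 0 in 29 of 30. Between E28 and D1 the mean Ct of the 20 genes moved by a median of -0.63 cycles (D1 minus E28), and that of the references by -0.72 to -0.03. In the other 30 genes the median was 0.90. Within the 20 it was -1.13 in the 13 genes with a higher D1 mean and 0.06 in the 7 without, a contrast that the split uses. The study names its references as SDHA, GLUT8, PDHA1, POL2 and luciferase, an RNA added from outside, and the tables do not tell which row is which.

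Relative expression was therefore recomputed with each reference alone, with each left out, and with none, which makes 11 choices. Rows 17, 33, 44 and 47 were highest on D4 under all 11. For 9 genes (rows 2, 6, 15, 20, 21, 30, 37, 38 and 43) D4 was the highest stage under 10 choices and lost this place with reference row 53 alone, the reference with the largest shift towards an earlier Ct on D4. Row 42 kept it under 9 choices, rows 5, 13 and 29 under 7, rows 9 and 39 under 6, and row 19 under 5. The number of genes highest on D4 in the whole panel was 4 with row 53 alone, 14 with row 51 or row 52 alone, and 32 with row 54 or row 55 alone. With no reference it was 21, of which 18 were among the 20. The split was steadier, since rows 2, 5, 13, 17, 21, 29, 33, 37, 43 and 44 had a D1 mean above E28 under all 11 choices and rows 6, 15, 39 and 47 under 0. Row 20 had a D1 mean above E28 under 8 of the 11.

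**Figure D3:**
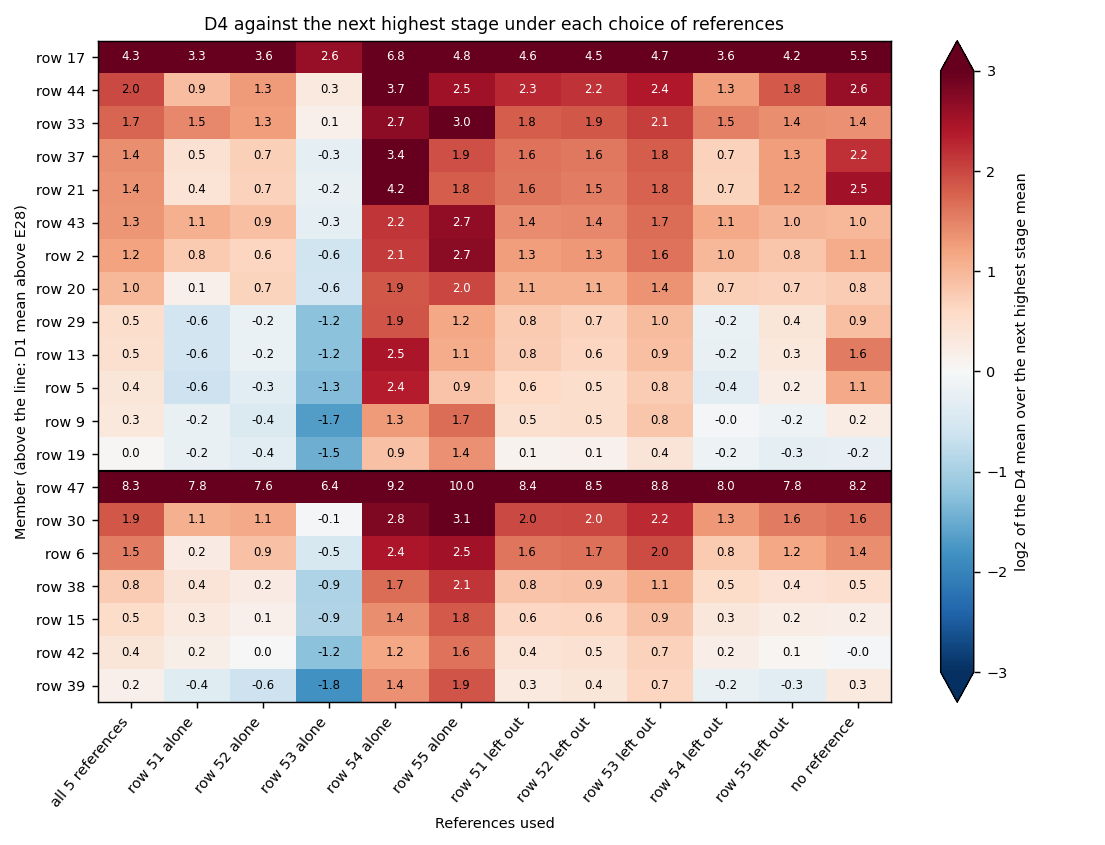
Log2 of the D4 mean over the next highest stage mean for the 20 genes (one per line, the 13 with a D1 mean above E28 over the black line) under all 5 references and the 11 other choices; red is D4 highest and blue is D4 not highest. The column for reference row 53 alone is blue except in rows 17, 33, 44 and 47, and the columns for rows 54 and 55 alone are red throughout.

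The embryonic stages were then compared with each other, since these contrasts did not directly choose the genes. No embryonic mean of a chosen gene can exceed its D4 mean, however. Most of the other 30 genes had their highest mean at an embryonic stage. Setting the 20 genes against them or the panel is therefore not free of the selection. The procedure of the study was used, with Bonferroni comparisons of means for genes whose values were normal in every stage and Dunn comparisons of ranks for the others, each over 21 stage pairs. Among the 10 pairs of embryonic stages, 61 of the 200 comparisons in the 20 genes passed, of which 54 were lower and 7 higher at the later stage. Over the whole panel 42.4% of comparisons passed, 37.6% as lower and 4.8% as higher, and in the other 30 genes 151 of 300 passed. For genes compared by means, this procedure pools the spread of D4, where these genes are high. The procedure was repeated over the 5 embryonic stages alone, a choice made after the data were seen. The repeat also corrects over 10 stage pairs in place of 21, ranks the values anew and chooses the test of each gene again. The part of each of these changes was not tested. In that fit 91 of the 200 comparisons passed (53.2% of those of the panel), and 129 passed by the permutation test on log2 values described below (70.4% of the panel). In the fit over 7 stages the count per gene went from 0 in rows 5, 6, 13, 17, 44 and 47 to 8 in row 19. The references moved across these stages as well. From E12 to E28 the mean Ct went from 14.4 to 17.4 in row 51 and from 15.2 to 17.2 in row 52. It went from 13.8 to 16.4 in row 53, from 10.2 to 9.84 in row 54 and from 17.4 to 19.7 in row 55.

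Between neighbouring stages, the changes that passed lay after E16. At E16 against E12, 0 of the 20 genes passed (4.0% of the panel), with 2 lower and 0 higher at an unadjusted p under 0.05 and 9 called by the permutation test described below (44.0% of the panel). The fit over the embryonic stages alone called 1 gene higher and 1 lower for this pair. With reference row 53 alone, 3 were higher and 0 lower. At E20 against E16, rows 9 and 37 were higher and rows 15, 19 and 29 lower (12.0% of the panel each way). The direction of the calls depended on the references here. With reference row 51 or row 52 alone 3 were higher and 0 lower, and with row 53 alone 2 and 0. With row 54 alone 0 were higher and 2 lower, and with row 55 alone 0 and 6. With row 51, 52 or 53 left out 0 were higher and 3 lower. With row 54 left out these counts were 3 and 2, with row 55 left out 2 and 1, and with no reference 0 and 2. At E24 against E20, 5 of the 20 were lower (rows 9, 19, 37, 39 and 42) and 0 higher, against 46.0% and 0.0% of the panel, and at an unadjusted p under 0.05 these counts were 10 and 0. With reference row 51, 52, 53 or 54 alone, 3, 8, 4 and 4 were lower and 0 higher. With row 55 alone 0 were lower and 2 higher, and with no reference 1 was lower and 0 higher. With 1 reference left out, 3 to 6 were lower and 0 higher. At E28 against E24, row 21 was higher and row 30 lower (2.0% and 12.0% of the panel). Across the embryonic stages sampled, at E28 against E12, 9 of the 20 were lower (rows 9, 15, 19, 29, 30, 33, 38, 42 and 43) and 0 higher, against 62.0% and 2.0% of the panel, with 11 lower and 1 higher at an unadjusted p under 0.05. The panel shares here are those of adjusted calls with all 5 references. For these stage pairs none is given at the unadjusted threshold, with other references or over the embryonic stages alone.

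Between E20 and E24 the 2 largest changes that passed were those of row 42 and row 37. Row 42 ranged from 0.295 to 1.02 at E24, with a median of 0.557, against 0.855 to 1.75 at E20, with a median of 1.15. Its mean log2 value was lower at E24 by a difference of -1.03 ± 0.13 (SE; Dunn comparison, adjusted p = 0.0372). This call was lost with row 54 alone, row 55 alone, row 51 left out, row 52 left out, no reference or removed values restored (adjusted p between 0.0834 and 1), where the difference lay between -1.98 and -0.89, except for -0.22 with row 55 alone. Row 37 ranged from 0.308 to 0.729 at E24, with a median of 0.505, against 0.650 to 1.40 at E20, with a median of 1.06, a difference of -1.01 ± 0.10 (SE; Bonferroni comparison, adjusted p = 0.000284). Its call was lost with row 51 alone (-0.83, adjusted p = 0.325) and row 55 alone (-0.35, adjusted p = 0.648). The ranges overlapped in both genes, but neither median lay inside the range of the other stage. The median difference of the 20 genes was -0.51 on the log2 scale, against -0.91 in the other 30. Those 30 have their highest mean outside D4 by the selection, so this gap is not independent of it.

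Row 17 shows how the test limits this count. Its difference was -1.62 ± 0.25 (SE) on the log2 scale, E24 minus E20, but the comparison on linear values, which pools the spread of all stages including that of D4, gave an adjusted p of 1. A permutation test on log2 values, adjusted by Benjamini-Hochberg over all genes and stage pairs, called 12 of the 20 genes lower at E24 (rows 2, 9, 15, 17, 19, 21, 29, 33, 37, 39, 42 and 43) and row 20 higher, where 74.0% and 4.0% of the panel passed.

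**Figure D4:**
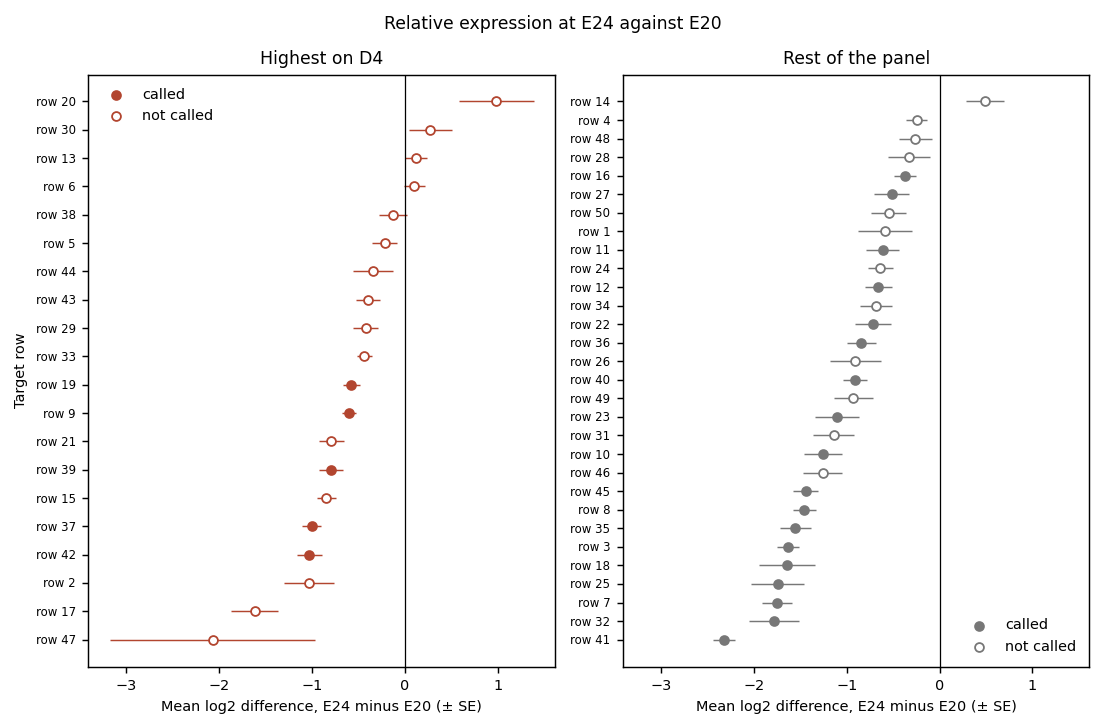
Mean log2 difference of relative expression, E24 minus E20, with its SE, for the 20 genes highest on D4 (left) and the other 30 (right); filled points passed the procedure of the study. Filled points are 5 on the left and 18 on the right, all below 0.

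Finally, the variation between animals of D4 was examined. It is not independent of the selection, since an arithmetic mean of linear values rises with the spread of the log2 values. Row 19 was highest on D4 by arithmetic means (log2 ratio 0.0373) but not by medians (-0.0252) or geometric means (-0.0116). On the log2 scale the SD between D4 animals had a median of 0.54 in the 20 genes and 0.62 in all 50, and between D1 animals 0.44 and 0.56. The mean distance from the stage median was compared between D4 and D1 by a permutation test, adjusted over all 50 genes, which was chosen after the data were seen. Only row 33 had a wider spread on D4, with an SD of 0.87 on D4 and 0.20 on D1 (adjusted p = 0.001), which is 2.0% of the panel, and 0 of the 20 had a narrower one (0.0% of the panel). With no reference, and with reference row 53 or row 55 alone, 0 of the 20 passed, with 4, 2 and 2 genes at an unadjusted p under 0.05. At an unadjusted p under 0.05, the spread was also wider on D4 in rows 5, 13, 20, 29 and 38 and narrower in row 47. No share of all 50 genes is given at that threshold or with other references, so these rows and counts cannot be read against the panel.

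Pairs of the 20 genes were correlated over the D4 animals (Pearson r of log2 values, 2-sided permutation test, Benjamini-Hochberg over all 1225 pairs of the panel). Of the 190 pairs, 16 passed, 13 with a positive and 3 with a negative r (4.0% and 0.816% of all pairs), which is 8.42% of these pairs against 4.82% of all pairs and 4.15% of the pairs outside the 20. The median r was 0.25 within the 20 and 0.08 in the other pairs. The positive pairs gathered around rows 33 and 43, with 4 partners each, and rows 17 and 44, with 3 each. The gap between the shares depended on the references. With row 52 alone 7.37% of the pairs within the 20 passed against 9.28% outside. These shares were 16.8% and 16.3% with row 51 alone, and 6.84% and 5.6% with row 54 left out. With row 53, 54 or 55 alone they were 36.3% and 26.0%, 88.9% and 45.4%, and 56.8% and 19.4%. Without D4 replicate 5, the animal with the lowest values in rows 33, 43 and 44, 10 pairs passed, of which 9 were among the 16, so that 5.26% of these pairs stood against 4.16% of all pairs. On D1 the same permutation test passed 0 of the 190 pairs, whose median r was 0.20, with 28 pairs at an unadjusted p under 0.05, against 55 on D4. Over the whole panel 0.0816% of the pairs passed on D1. No share of all pairs is given at the unadjusted threshold, so the counts of 28 and 55 cannot be read against the panel. The difference between D4 and D1 itself was not tested.

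Rows 33 and 43 had the highest Pearson r over the D4 animals (r = 0.91, n = 19, adjusted p = 0.00408; rho = 0.82, permutation p = 4e-05). When the 2 animals most distant from the median of row 33 were dropped, r was 0.84 (permutation p = 4e-05). Rows 17 and 33 followed (r = 0.83, n = 20, adjusted p = 0.0049; rho = 0.91, permutation p = 1e-05, the smallest that 100000 resamples can give), with r = 0.88 without the 2 farthest animals, and were thus the closer pair by rho and without those animals. Both pairs passed under each of the 11 choices of references, and with no reference r was 0.94 and 0.89. Without a reference all genes share the amount of template of an animal, and the median r of the 190 pairs was then 0.66.

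Rows 13 and 21, the most negative pair, had r = -0.68 (n = 20, adjusted p = 0.0288; rho = -0.66, permutation p = 0.0021), and -0.57 without the 2 farthest animals, and passed under 2 of the 11 choices, those with row 54 or row 55 left out. With no reference their r was 0.32, below the median of the 190 pairs in that setting. Rows 38 and 47 also passed (r = -0.67, n = 20, adjusted p = 0.0317, with rho = -0.73, permutation p = 0.00037). This pair did not pass with row 51, 53, 54 or 55 alone, with row 53 left out or with no reference. With no reference its r was -0.16. The D4 animals also fell into 2 ranges of row 47, 7 animals from 79.0 to 125 and 13 from 224 to 428. This division was read from the same values. In the lower range r was 0.71 (exact permutation p = 0.095) and rho 0.29 (exact permutation p = 0.56). In the higher range r was -0.52 (permutation p = 0.071) and rho -0.39 (permutation p = 0.19). The r over all D4 animals thus spans 2 ranges. Neither passed alone, and with 7 and 13 animals over a narrower span neither can settle its own sign. The labels give no property that divides these animals.

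**Figure D5:**
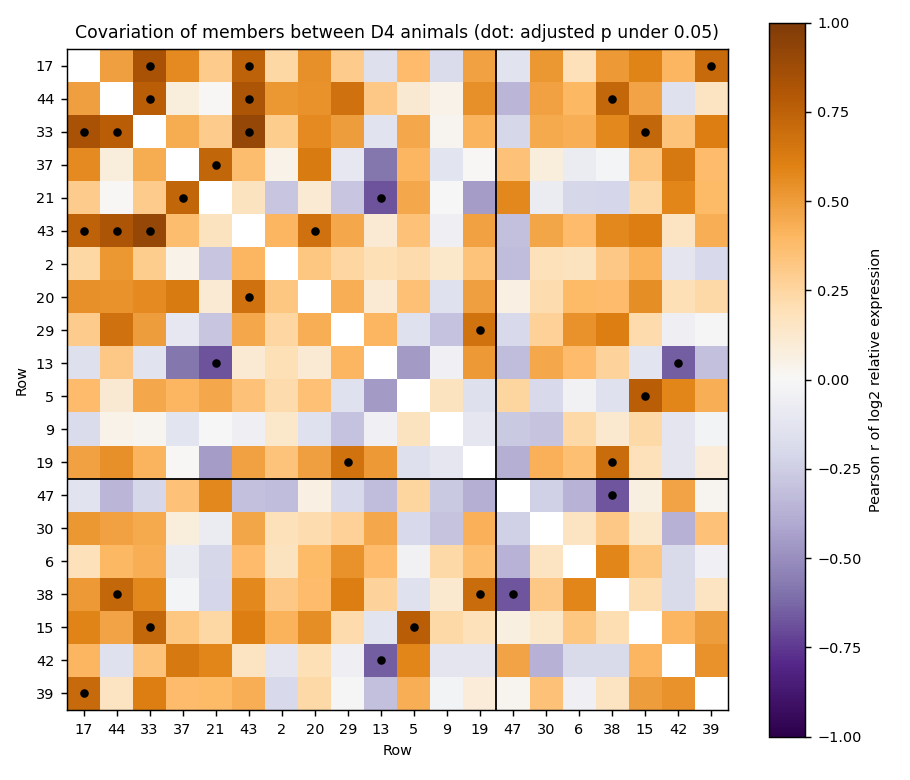
Pearson r between the 20 genes highest on D4 over the D4 animals, on log2 relative expression with all 5 references; dots mark the 16 pairs that passed, and black lines divide the 13 genes with a D1 mean above E28 from the 7 without. Dots gather at rows 17, 33, 43 and 44, and the 3 negative pairs are rows 13 and 21, 13 and 42, and 38 and 47.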

How the data were processed

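Hepatic mRNA of mule ducks was measured at 7 stages, which the sample titles name. The authors deposited Ct values for 55 rows, obtained in the Fluidigm software after values with aberrant melting curves were taken out, and the relative expression of 50 target rows, a linear ratio to the geometric mean of 5 references. The ratio could be rebuilt from these Ct values at an efficiency of 2, with a largest deviation of 0.0028 on the log2 scale.

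The 20 genes, the lists and the tests were chosen with earlier results of these data known. The genes given in full were, in each part of the split, the 3 with the highest and the 1 with the lowest ratio of the D4 mean to the next highest mean, the genes at each threshold, the 2 largest changes each way between E20 and E24 among those called, and the 2 most positive and most negative pairs on D4. Other genes were taken after their values were seen.

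Embryonic stages were compared by the procedure of the study. The Shapiro-Wilk test was run within each stage, ANOVA with Bonferroni comparisons was used where no stage departed from normality (7 of the 20 genes) and the Kruskal-Wallis test with Dunn comparisons otherwise (13), over 21 stage pairs, calling adjusted p-values under 0.05. For permutation tests 100000 resamples were drawn. Of 2740 values of the 20 genes, 29 had no Ct and 80 had a Ct but no relative expression, 75 of these higher and 5 lower than all retained values of that gene at that stage. No value was imputed. The number of animals sets the precision of a mean. The study ran the reverse transcription in duplicate. The deposited data hold a single value per gene and animal, and how the duplicates were handled is not stated. Alternatives covered the references, restored values, stage summaries, tests, the stages in the fit, a replicate block, and leaving out animals with an extreme reference Ct. Python 3.11.15, numpy 2.4.6, pandas 2.3.3 and scipy 1.17.1 were used, and the tests were tried on simulated data.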

Additional observations from a re-analysis of the deposited data

How the results depend on the processing

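The D1 mean was above the E28 mean in 10 to 16 of the 20 genes under all 16 alternatives, against 13. The number of genes highest on D4 was 4 with reference row 53 alone and 32 with row 54 or row 55 alone, against 20, and lay between 14 and 25 under the 13 others. The log2 ratio of the D4 mean to the next highest mean turned below 0 in 4 of the 8 genes followed. With row 53 alone it was -0.47 in row 6, -0.062 in row 30, -1.46 in row 19 and -1.82 in row 39. In row 19 it was also -0.22 with row 51 alone, -0.35 with row 52 alone, -0.15 with row 54 left out, -0.28 with row 55 left out, -0.24 with no reference, -0.0252 with medians and -0.0116 with geometric means. In row 39 it was -0.37 with row 51 alone, -0.63 with row 52 alone, -0.22 with row 54 left out, -0.31 with row 55 left out and -0.0218 with the 80 removed values restored. The number of embryonic comparisons called, 61, was 96 with ANOVA on log2 values, 129 with the permutation test and 95 when that model of log2 values had a replicate block, and 60, 61 and 60 of the 61 were among them. Over the 5 embryonic stages alone, chosen after seeing the data, it was 91, with all 61 among them. The calls depended more on the references. With reference row 51, 52, 53 or 54 alone the number was 52, 56, 64 and 83. Of these calls, 27, 47, 42 and 44 were among the 61. The share of the panel that passed moved as well. It was 42.4% in the fit over 7 stages, 70.4% by the permutation test and 53.2% over the embryonic stages alone. No panel share is given for the models of log2 values or for single references. The counts of 96 and 95 and those with a single reference cannot be read against the panel. The replicate numbers do not pair the animals, since deviations of same-numbered animals had a mean correlation of 0.0 and 5 animals correlated best with their own number. The number of pairs correlated on D4, 16, was 32, 69, 169 and 108 with row 51, 53, 54 or 55 alone, 143 with no reference, 25 with row 52 left out, 25 with removed values restored, 10 without D4 replicate 5 and 0 on D1. The share of all pairs of the panel, 4.82%, moved as well, to 16.4%, 27.6%, 52.2%, 25.2%, 31.5%, 7.02%, 8.08%, 4.16% and 0.0816% in that order. The correlation of rows 13 and 21 was 0.39 with row 54 alone, 0.12 with row 55 alone, 0.32 with no reference and 0.30 on D1. The number of genes with a wider spread on D4, 1, was 2 with row 51 alone, 2 with row 52 alone, 4 with row 54 alone, 2 with removed values restored, and 0 with row 53 alone, row 55 alone or no reference. The cause was not tested. For rows 37 and 42 the call between E20 and E24 was lost under 2 and 6 of 20 alternatives, with the direction kept.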

Other observations

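The D4 animals differed in how far they stood from the stage medians over the 20 genes together. Replicate 5 was lowest, with a median deviation of -0.78 on the log2 scale and 3 of 20 genes above the stage median, and its mean reference Ct was 0.935 cycles above the median of D4. Replicate 12 was highest, with a median deviation of 0.35, 12 of its 16 genes above the median, and a mean reference Ct 0.311 cycles above the median of D4. Replicates 2 and 16 also had a late mean reference Ct, 0.778 and 0.835 cycles above the median, with median deviations of -0.21 and 0.21. The part of the references in these values was not tested.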
